A study of Mus musculus with 6 samples.

Results

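The 10 genes described here encode the muscle isoforms and peptide hormones that tell atrial from ventricular heart muscle, taken by NCBI gene number from a table of 21117 genes in aortic tissue. Of these, 4 are atrial (Myl4, Myl7, Sln and Nppa), 2 are ventricular light chains (Myl2 and Myl3) and 4 are shared between chambers or muscle types (Myh6, Myh7, Nppb and Myh7b). Poly(A) RNA was sequenced from 3 Fbn1C1041G/+ samples, heterozygous for a missense allele of fibrillin-1 that serves as a mouse model of Marfan syndrome, and from 3 WT samples. All were aortic tissue of mice aged 32 weeks and were labelled untreated. Sex, strain, aortic segment and the number of animals per sample were not stated in the labels. The genes were chosen by their FPKM in these 6 libraries, where they differed between the groups and among the mutant samples, so the difference between the groups is given for them as a description, without a test.

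Heart muscle contracts through sarcomeric myosin, in which a pair of heavy chains each carries an essential and a regulatory light chain. Atria and ventricles of the adult heart build this motor from different light chain genes, while alpha heavy chain Myh6 serves both chambers in the adult mouse and beta heavy chain Myh7 marks the fetal ventricle and slow skeletal muscle. Atrial muscle also makes sarcolipin, a small membrane protein that restrains the calcium pump of the sarcoplasmic reticulum, and stores atrial natriuretic peptide. The arterial wall itself runs on smooth muscle and non-muscle myosins, encoded by other genes.

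The stretches before the transcription start of 4 members are shown because they share short motifs. Myl7 and Myl3, which peaked in different libraries, share one, and Myl7, Nppa and Nppb share another. The stretches are RefSeq sequences of build GRCm38.p6, 250 bases up to the base before the start, in the direction of the gene. The submitters' processing notes name mm9, and the expression table holds no coordinates, so the positions are those of GRCm38.p6 only. Capitals mark the CArG box, the site of serum response factor, and the letters TGATAA, of the kind that GATA factors bind, both searched on both strands. No marked motif overlapped another.
Myl7, chr11:5898783-5899032, minus strand: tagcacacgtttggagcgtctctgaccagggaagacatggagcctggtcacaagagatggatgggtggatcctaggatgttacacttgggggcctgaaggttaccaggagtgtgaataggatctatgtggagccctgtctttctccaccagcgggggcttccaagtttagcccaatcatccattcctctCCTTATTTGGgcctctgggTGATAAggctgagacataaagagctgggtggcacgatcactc
Myl3, chr9:110763428-110763677, plus strand: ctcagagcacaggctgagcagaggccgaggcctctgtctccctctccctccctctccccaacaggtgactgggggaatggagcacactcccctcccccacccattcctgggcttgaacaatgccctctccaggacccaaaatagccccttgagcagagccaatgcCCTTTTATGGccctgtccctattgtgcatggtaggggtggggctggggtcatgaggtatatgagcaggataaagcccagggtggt
Nppa, chr4:148000472-148000721, plus strand: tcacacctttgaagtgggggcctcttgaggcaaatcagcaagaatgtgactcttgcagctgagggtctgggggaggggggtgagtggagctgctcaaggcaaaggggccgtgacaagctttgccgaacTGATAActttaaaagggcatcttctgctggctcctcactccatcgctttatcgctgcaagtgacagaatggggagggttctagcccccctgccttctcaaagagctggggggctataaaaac
Nppb, chr4:147985650-147985899, plus strand: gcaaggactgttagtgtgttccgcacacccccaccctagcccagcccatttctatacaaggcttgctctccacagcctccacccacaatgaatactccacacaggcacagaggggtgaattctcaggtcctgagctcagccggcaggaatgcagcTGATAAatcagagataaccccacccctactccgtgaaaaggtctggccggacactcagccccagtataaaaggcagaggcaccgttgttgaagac

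A CArG box was found in the windows of Myl7, at positions -61 to -52 counted back from the start, and of Myl3, at -85 to -76, and in no other of the 9 members that have a window in the table. Of all 32851 windows of this length, 1.47% held one. The letters TGATAA stood before Myl7, Nppa and Nppb, against 7.94% of all windows. Myl4 and Myh6, which like them were highest in Fbn1C1041G/+ replicate 3, held no TGATAA. Other spellings that GATA factors bind were not searched, so no link between this motif and the peak in replicate 3 is read. The letters TATAAA, in lower case above for Nppa and Nppb, stood before Nppa, Nppb and, on the opposite strand, Myl2, against 12.4% of all windows. The CArG box was thus shared by an atrial and a ventricular light chain gene whose levels peaked in different libraries. Sln was the member without a window.

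The tissue carried smooth muscle and endothelial transcripts at similar levels in both groups, with Acta2 at 4674 to 6357 FPKM in Fbn1C1041G/+ and 4956 to 5909 FPKM in WT libraries. Summed over 6 smooth muscle markers the level was 10049 to 12624 FPKM in Fbn1C1041G/+ and 9265 to 11324 FPKM in WT libraries, and over 4 endothelial markers 216 to 268 FPKM in Fbn1C1041G/+ and 213 to 337 FPKM in WT libraries, with none of the 10 called. FPKM scales fragments by transcript length and library size, so levels of different genes can be set side by side. From the steps between low values, the depth was estimated at 14480000 to 17030000 fragments in Fbn1C1041G/+ and 13920000 to 16780000 in WT libraries. Fbn1, the mutated gene, stood at 21.8 to 28.6 FPKM in Fbn1C1041G/+ and 16.9 to 22.2 FPKM in WT libraries, and a missense allele need not change its transcript level. Spearman correlations across genes were 0.954 to 0.970 within Fbn1C1041G/+ and 0.927 to 0.978 within WT libraries, with the lowest WT values, 0.927 and 0.933, both from WT replicate 3. Across all 13438 genes tested with limma on log2(FPKM + 1), 0.744% were called higher and 4.85% lower in Fbn1C1041G/+ libraries at an adjusted p under 0.05.

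The 4 atrial genes were high in a single library, Fbn1C1041G/+ replicate 3. Myl4, the atrial essential light chain, had 7.72, 9.83 and 107 FPKM in Fbn1C1041G/+ replicates 1 to 3, against 6.30, 8.14 and 4.71 FPKM in WT replicates 1 to 3. Fbn1C1041G/+ replicate 3 stood 13.2 times above the highest WT value, and the groups overlapped because Fbn1C1041G/+ replicate 1 lay below WT replicate 2. Myl7, the atrial regulatory light chain, had 2.0, 3.43 and 126 FPKM in Fbn1C1041G/+ libraries, against 0.95, 2.76 and 0.61 FPKM in WT libraries. The groups overlapped here too, and Fbn1C1041G/+ replicate 3 was 36.6 times the next mutant library. In that library the value of Myl7 rested on about 1180 fragments, in the other mutant libraries on about 20 and 29, and in WT libraries on about 9, 27 and 5.

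Sln, sarcolipin, had 1.92, 1.60 and 58.6 FPKM in Fbn1C1041G/+ libraries, against 0.47, 1.15 and 0.69 FPKM in WT libraries. All 3 mutant values lay above the WT values, although those of replicates 1 and 2 did so by little. Nppa, the precursor of atrial natriuretic peptide, had 6.09, 4.37 and 40.7 FPKM in Fbn1C1041G/+ libraries, against 1.01, 2.58 and 0.75 FPKM in WT libraries. The groups did not overlap, and Nppa was the atrial gene in which replicate 3 exceeded the next mutant library least, by 6.69 times. Over the 4 atrial genes the mean difference of log2(FPKM + 1), Fbn1C1041G/+ minus WT, was 2.11, and it was 0.79 without Fbn1C1041G/+ replicate 3. In bulk tissue, fewer cells of a type and less RNA per cell cannot be told apart, which holds for every level given here.

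The ventricular light chains were lowest, not highest, in replicate 3 of the mutant libraries. Myl2, the ventricular regulatory light chain, which slow skeletal muscle also uses, had 90.6, 33.7 and 0.81 FPKM in Fbn1C1041G/+ libraries, against 0.10, 0.38 and 0.46 FPKM in WT libraries. The groups did not overlap, but Fbn1C1041G/+ replicate 3, with about 9 fragments, lay close to the WT libraries with about 1, 4 and 4. Fbn1C1041G/+ replicate 1 held 112 times as much Myl2 as replicate 3. Myl3, the essential light chain of ventricle and slow muscle, had 50.6, 12.98 and 3.71 FPKM in Fbn1C1041G/+ libraries, against 0.34, 0.20 and 0.08 FPKM in WT libraries. Here replicate 3 stayed apart from WT, with about 55 fragments against at most about 5. The mean log2 difference of Myl2 and Myl3 was 3.71, and it was 4.96 without Fbn1C1041G/+ replicate 3 and 2.68 without Fbn1C1041G/+ replicate 1.

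The heavy chains split in the same libraries. Myh6, the alpha heavy chain, had 19.3, 7.04 and 40.8 FPKM in Fbn1C1041G/+ libraries, against 0.64, 0.85 and 0.42 FPKM in WT libraries. It was high in all 3 mutant libraries, and its lowest mutant value was still far above the highest WT value. Myh7, the beta heavy chain, had 3.39, 6.61 and 0.19 FPKM in Fbn1C1041G/+ libraries, against 0.05, 0.03 and 0.01 FPKM in WT libraries. Fbn1C1041G/+ replicate 2 was highest and replicate 3, with about 19 fragments, was 34.8-fold lower than replicate 2. Of all stretches of 50 bases in Myh6 transcripts of the GENCODE M21 annotation, 21.9% also occur in Myh7, so reads may have been shared between these 2 genes and the low Myh7 values beside high Myh6 are uncertain. No stretch of 50 bases was shared between Myl4 and Myl3 or between Myl7 and Myl2.

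Nppb and Myh7b were too low for the test, with means under 1 FPKM over the 6 libraries. Nppb, the precursor of brain natriuretic peptide, had 1.29, 1.07 and 2.20 FPKM in Fbn1C1041G/+ libraries, against 0, 0.08 and 0 FPKM in WT libraries. The groups did not overlap, and the mutant libraries differed by no more than 2.06 times. Myh7b, a slow tonic heavy chain of the same family, had 0.14, 0.10 and 0.01 FPKM in Fbn1C1041G/+ libraries, against 0.02, 0.07 and 0.06 FPKM in WT libraries. Its groups overlapped, and each value rested on about 15 fragments or fewer.

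**Figure D1:**
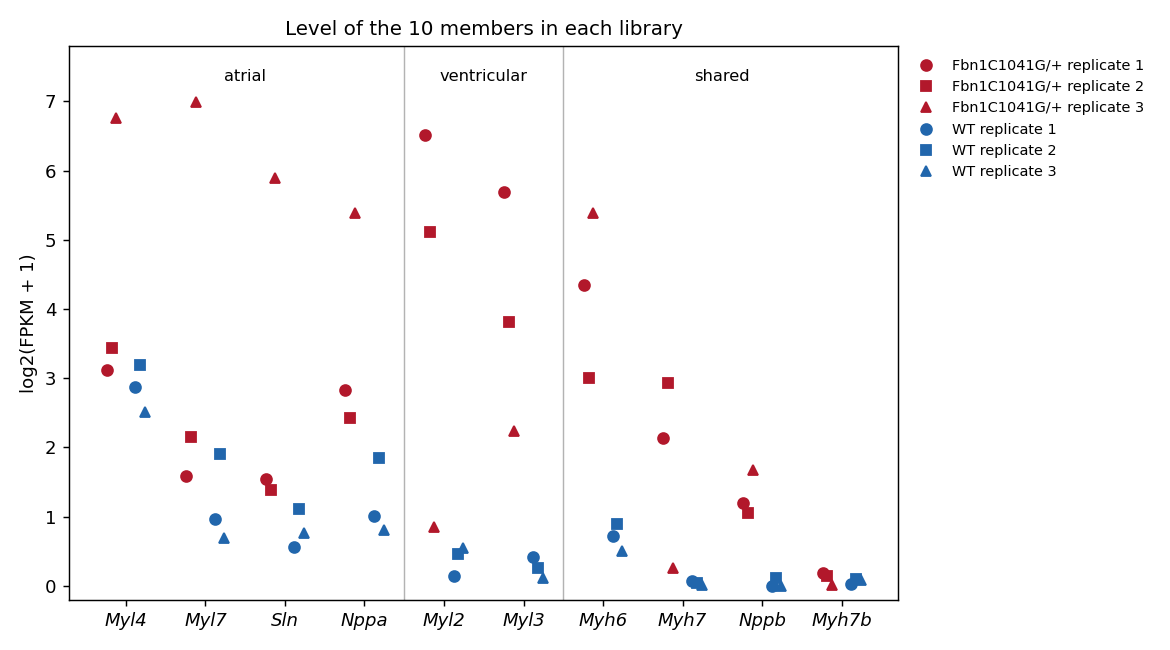
Each point is 1 library; the vertical axis is log2(FPKM + 1) and the horizontal axis gives the 10 genes by class, with Fbn1C1041G/+ libraries (red) left of WT libraries (blue) and the marker shape giving the replicate number. The red triangles, Fbn1C1041G/+ replicate 3, stand alone above all other points for the 4 atrial genes (107 FPKM for Myl4), while for Myl2 the triangle lies at 0.81 FPKM, close to WT.

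Of the 10 members, 8 passed the filter at a mean of 1 FPKM, and only Myl4, Myl7 and Nppa had a WT mean of at least 1 FPKM. In the fit over all genes, 2 of the 8 tested members (Myl3 and Myh6) were called higher and none lower, where 0.744% of all tested genes were called higher. The values of Fbn1C1041G/+ lay wholly above those of WT for 6 of the 8 tested members, against 6.85% of all tested genes. Nothing is read from these counts, since the same contrast was known when the members were chosen. Group means hide the split between libraries: Myl7 averaged 43.7 ± 71.0 FPKM in Fbn1C1041G/+ and 1.44 ± 1.16 FPKM in WT libraries (SD, n = 3 each), and Myl2 averaged 41.7 ± 45.4 FPKM in Fbn1C1041G/+ and 0.313 ± 0.189 FPKM in WT libraries (SD, n = 3 each).

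Partner genes, expressed as shares of a pair, give the split within each library. Of the summed FPKM of both regulatory light chains, Myl7 made up 2.16%, 9.24% and 99.4% in Fbn1C1041G/+ replicates 1 to 3, against 90.5%, 87.9% and 57.0% in WT replicates 1 to 3. Fbn1C1041G/+ replicates 1 and 2 thus held mainly the ventricular partner and replicate 3 almost only the atrial one. The WT shares rested on few fragments, about 9 of Myl7 and 1 of Myl2 in WT replicate 1. Of both essential light chains, Myl4 made up 13.2%, 43.1% and 96.7% in Fbn1C1041G/+ libraries, against 94.9%, 97.6% and 98.3% in WT libraries. The order of the mutant libraries was the same for both pairs. Of both heavy chains, Myh6 made up 85.1%, 51.6% and 99.5% in Fbn1C1041G/+ libraries, against 92.8%, 96.6% and 97.7% in WT libraries. Nppa made up 82.5%, 80.3% and 94.9% of the 2 natriuretic peptide genes in Fbn1C1041G/+ libraries, against 97.0% in WT replicate 2, the WT library with any Nppb. On the log2(FPKM + 1) scale, the mean of the 4 atrial genes minus that of Myl2 and Myl3 was -3.83, -2.11 and 4.71 in Fbn1C1041G/+ libraries, against 1.07, 1.65 and 0.86 in WT libraries.

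**Figure D2:**
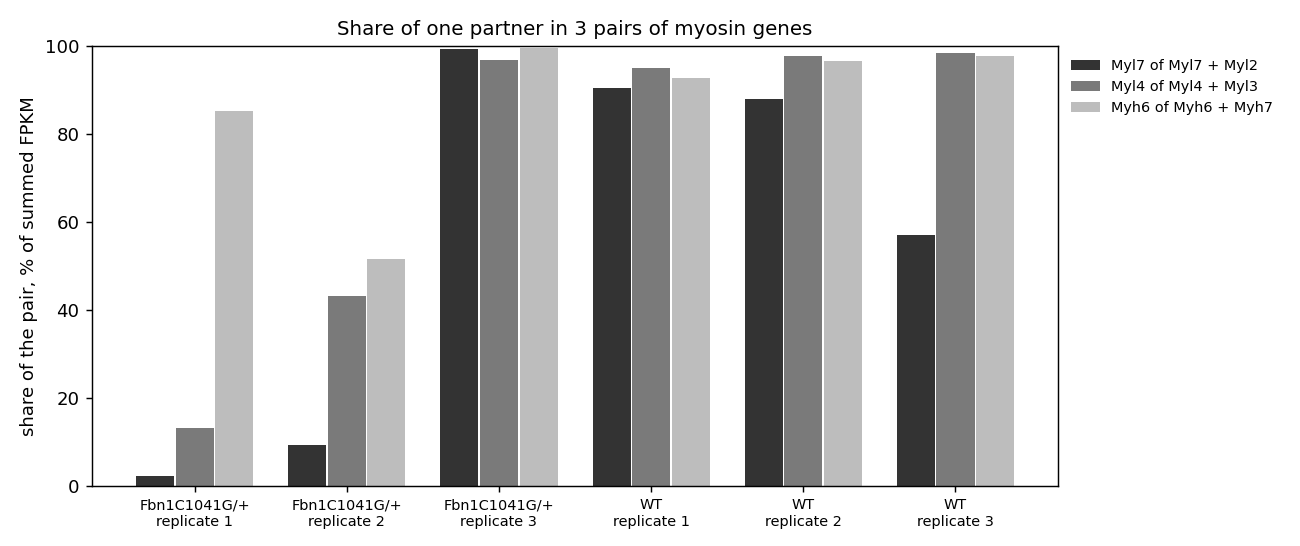
Bars give the share of 1 partner in the summed FPKM of a gene pair (vertical axis, percent) in each of the 6 libraries, with Fbn1C1041G/+ libraries on the left. The atrial partner Myl7 makes up 2.16% and 9.24% of its pair in Fbn1C1041G/+ replicates 1 and 2 and 99.4% in replicate 3.

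Cardiac troponin I, Tnni3, a thin filament protein used by adult heart muscle of both chambers, gave a common scale for the mutant libraries. Per FPKM of Tnni3, Myh6 stood at 0.565, 0.561 and 0.726 FPKM in Fbn1C1041G/+ replicates 1 to 3, so that this gene kept nearly the same proportion to Tnni3 while the light chains did not. On the same scale Myl2 stood at 2.65, 2.69 and 0.0144, and Myl3 at 1.48, 1.04 and 0.0661. Fbn1C1041G/+ replicates 1 and 2 were alike in Myl2 once set against Tnni3, although their levels in FPKM differed by 2.69 times. Per FPKM of Tnni3, Myl7 stood at 0.0585, 0.274 and 2.24, Sln at 0.0562, 0.128 and 1.04, and Nppa at 0.178, 0.348 and 0.725. Among the mutant libraries, replicate 3 was highest for each atrial gene on this scale as well. Myh7 stood at 0.0992, 0.527 and 0.00338 per FPKM of Tnni3 and was the member that most set replicate 2 apart from replicate 1. The WT libraries, in which Tnni3 itself was 1.09 to 2.25 FPKM, had Myh6 at 0.421, 0.378 and 0.385 per FPKM of Tnni3. Myl4 stood at 0.226, 0.784 and 1.91 per FPKM of Tnni3 in Fbn1C1041G/+ libraries, against 4.14, 3.62 and 4.32 in WT libraries, so that relative to Tnni3 this atrial gene was higher in WT. Nppa stood at 0.664, 1.15 and 0.688 per FPKM of Tnni3 in WT libraries, so that WT replicate 2 lay above Fbn1C1041G/+ replicate 3 and the other WT libraries lay close to it. For Myl7 and Sln, Fbn1C1041G/+ replicate 3 lay above all WT libraries, whose highest values were 1.23 and 0.633.

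**Figure D3:**
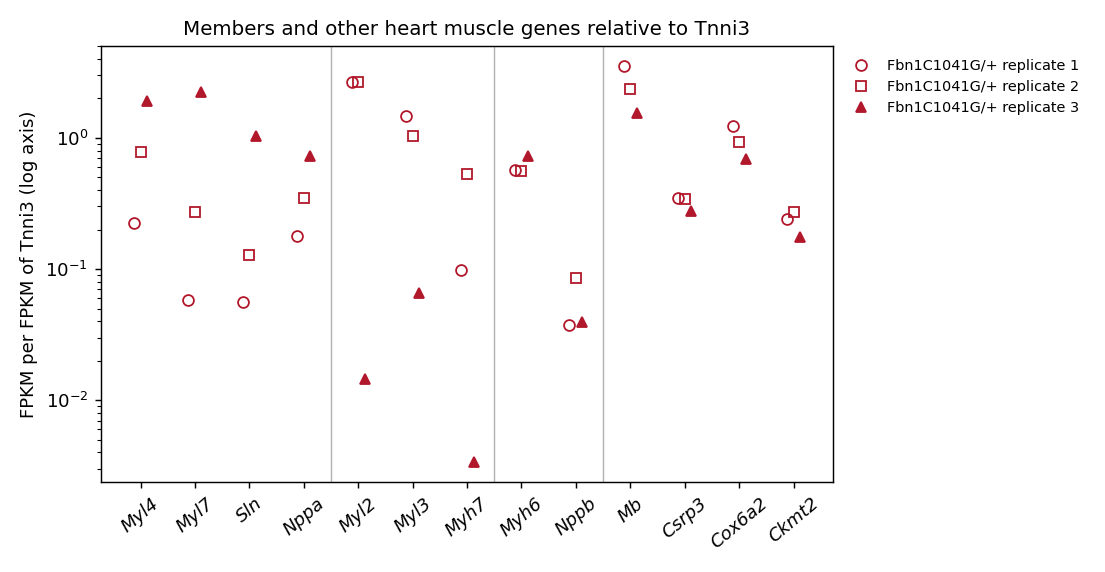
Each point is 1 Fbn1C1041G/+ library; the vertical log axis gives the FPKM of a gene per FPKM of Tnni3, and vertical lines part the atrial genes, then Myl2, Myl3 and Myh7, then Myh6 and Nppb, then other heart muscle genes. The filled triangles (replicate 3) lie above the open markers for the 4 atrial genes and below them for Myl2, Myl3 and Myh7, while Myh6 lies at 0.561 to 0.726 in all 3.

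Among WT libraries, WT replicate 2 was highest for all 4 atrial genes, with Nppa at 2.58 FPKM and Myl7 at 2.76 FPKM. It was also the WT library with the most Myh6 and Tnni3, at 0.85 and 2.25 FPKM. The WT libraries differed from each other by 1.73 times in Myl4 and by 4.52 times in Myl7.

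On a list of 26 genes that heart muscle of both chambers uses, 19 had all 3 mutant values above the WT values. Of the 26, 20 were tested, of which 10 were called higher, none lower and 10 were not called (limma, adjusted p under 0.05). Of all genes tested, 0.744% were called higher. The mutant values lay wholly above the WT values for 13 of the 20, against 6.85% of all genes tested. The list median was 1.43 on the log2(FPKM + 1) scale, against -0.004 for all genes tested. This and the other gene lists were made with earlier results of these data known, so their counts and medians are given as a description. Tnnt2, cardiac troponin T, had 87.0, 73.1 and 154 FPKM in Fbn1C1041G/+ libraries, against 20.97, 18.3 and 7.35 FPKM in WT libraries (limma adjusted p = 0.0108). Mb, the oxygen-binding protein myoglobin, had 121, 29.5 and 87.3 FPKM in Fbn1C1041G/+ libraries, against 1.51, 1.88 and 1.02 FPKM in WT libraries (limma adjusted p = 0.00241). Tnni3 had 34.2, 12.5 and 56.2 FPKM in Fbn1C1041G/+ libraries, against 1.52, 2.25 and 1.09 FPKM in WT libraries (limma adjusted p = 0.00689). For all 3 of these genes the groups were well apart, and none had a mutant library near the WT level as Myl2 and Myl7 did.

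Ckmt2, a mitochondrial creatine kinase of heart and skeletal muscle, rose to 8.19, 3.42 and 9.95 FPKM in Fbn1C1041G/+ libraries, against at most 0.35 FPKM in WT libraries. Csrp3, a Z-disc protein, had 11.97, 4.27 and 15.7 FPKM in Fbn1C1041G/+ libraries, against 0, 0.34 and 0.14 FPKM in WT libraries. The sarcomere genes Mybpc3 and Tnnc1 and the respiratory chain gene Cox6a2 also rose, with log2 differences of 2.23, 3.12 and 4.13 and limma adjusted p values of 0.00256, 0.00550 and 0.00300. Tnnt2, Mb, Tnni3, Ckmt2, Csrp3, Mybpc3, Tnnc1 and Cox6a2 kept an adjusted p under 0.05 in every alternative in which they were tested, leaving out any 1 library included, with values of 0.000794 to 0.0477. The other 2 called genes were Actn2 and Ankrd1, named after their values were seen, and both calls depended on the settings. Among the fits at a threshold of 0.05, Actn2 was called only with the main settings and with no trend. Ankrd1 was not called with no filter or without any 1 library other than Fbn1C1041G/+ replicate 2. The 6 genes too low for the test had all mutant values above the WT values. Among the 26 genes the highest mutant value fell in Fbn1C1041G/+ replicate 1 for 11, in replicate 2 for 1 and in replicate 3 for 14. Some of the 26, such as Ckmt2, are skeletal muscle genes as well, and the part of skeletal muscle in their levels was not tested. The groups overlapped for 7 of the 26, Actc1, Ryr2, Ldb3, Tcap, Myom1, Fabp3 and Cox7a1, all named after their values were seen. None of these 7 was called with the main settings. Log2 differences were 0.28 (Ryr2) to 1.13 (Actc1) for the first 5 of these 7. Actc1 was called higher without Fbn1C1041G/+ replicate 2. Smpx, Casq2, Myom2, Ttn and Trdn, also named after their values were seen, were called higher in some alternatives. Fabp3 and Cox7a1, which brown fat also expresses strongly, had log2 differences of 0.014 and -0.20. Summed FPKM of 5 brown fat markers was 1389, 918 and 693 in Fbn1C1041G/+ libraries, against 671, 1135 and 2213 in WT libraries. The part of brown fat in these levels was not tested.

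**Figure D4:**
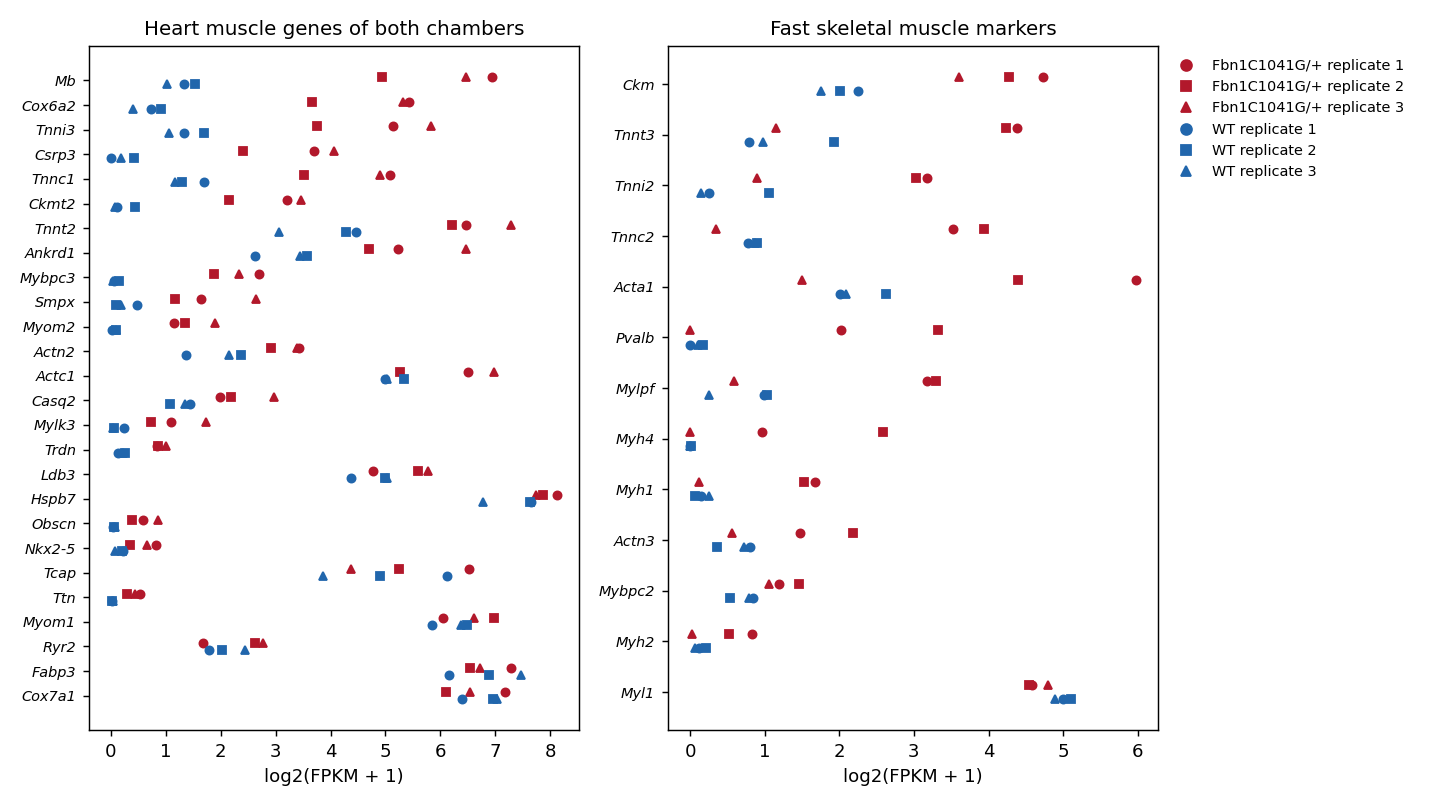
Horizontal axes give log2(FPKM + 1); each row is 1 gene of the list, ordered by its difference between groups, and each point is 1 library with Fbn1C1041G/+ in red above WT in blue. On the left, Mb, Tnni3 and Tnnt2 have all 3 mutant libraries above WT; on the right, Fbn1C1041G/+ replicate 3 (red triangle) lies among or near the WT points for Tnnc2, Pvalb and Myh4, while replicates 1 and 2 lie above them.

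Markers of fast skeletal muscle moved with the ventricular light chains among the mutant libraries. Without Myl1, 12 such genes summed to 144, 108 and 17.6 FPKM in Fbn1C1041G/+ replicates 1 to 3, against 11.1, 15.1 and 9.40 FPKM in WT libraries. Acta1, skeletal muscle actin, had 62.1, 19.95 and 1.83 FPKM in Fbn1C1041G/+ libraries, against 3.04, 5.20 and 3.24 FPKM in WT libraries. Myh4, the heavy chain of the fastest limb fibres, had 0.95, 5.01 and 0 FPKM in Fbn1C1041G/+ libraries, against 0, 0.01 and 0 FPKM in WT libraries. Pvalb, a calcium buffer of fast fibres, had 3.05, 8.98 and 0 FPKM in Fbn1C1041G/+ libraries, against 0, 0.13 and 0.08 FPKM in WT libraries; both genes were chosen after their values were seen. Replicates 1 and 2 thus held both these transcripts and those of Myl2, and in replicate 3 both were at or near the WT level. Of 13 listed fast muscle genes 10 were tested, and 1 of them, the creatine kinase gene Ckm, was called higher (limma adjusted p = 0.00561), against 0.744% of all genes tested. The other 9 were not called, and the median was 1.70, against -0.004 for all genes tested. Without Fbn1C1041G/+ replicate 3, 7 of 11 tested were called higher, Ckm, Acta1, Mylpf, Pvalb, Tnnc2, Tnni2 and Tnnt3 (limma adjusted p = 0.0308 for Acta1 and 0.0119 for Tnni2). In that fit 47 of all genes tested were called higher. The library left out is the one in which all of these but Ckm were at or near the WT level, so nothing is read from the gain. Ckm is a heart muscle gene as well and was still at 11.2 FPKM in Fbn1C1041G/+ replicate 3, against 2.38 to 3.74 FPKM in WT libraries. Myl1, a fast light chain gene, was 22.4 to 26.8 FPKM in Fbn1C1041G/+ and 28.7 to 33.4 FPKM in WT libraries and did not follow the others; it too was chosen after its values were seen.

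Tnni1, the slow skeletal troponin I, was 1.52, 0.25 and 0.36 FPKM in Fbn1C1041G/+ libraries, against 1.07, 1.09 and 1.44 FPKM in WT libraries, and so did not follow Myl2, Myl3 and Myh7, which slow fibres also express. Of 8 slow and developing muscle markers, 2 were tested and none was called with limma or had an unadjusted p under 0.05. Their sums were 11.1, 8.91 and 7.27 FPKM in Fbn1C1041G/+ libraries, against 11.3, 11.9 and 5.65 FPKM in WT libraries, and the muscle regulators Myod1 and Myog were at 0 outside Fbn1C1041G/+ replicate 1. Mybpc1, a myosin-binding protein of skeletal muscle, was 0.61, 0.72 and 0 FPKM in Fbn1C1041G/+ libraries, against 0.01 to 0.02 FPKM in WT libraries; it was chosen after its values were seen. The part of skeletal muscle in the values of Myl2, Myl3, Myh7 and the listed heart muscle genes was not tested.

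None of the other atrial genes separated the groups. The highest mutant value fell in Fbn1C1041G/+ replicate 3 for 8 of 9, and the ninth was at 0 throughout. The share of all genes with this order was not computed, so nothing is read from the count. Sbk2, Sbk3 and Kcnj3, named after their values were seen, and Gja5 had their highest value of all libraries in WT replicate 3. Of these 9 further atrial genes 3 were tested and none was called with limma or had an unadjusted p under 0.05; their median was 0.20, against -0.004 for all genes tested. Mybphl, a myosin-binding protein H-like gene of the atria, had 0, 0.11 and 10.3 FPKM in Fbn1C1041G/+ libraries, against 0.14, 0.09 and 0 FPKM in WT libraries. It thus had the pattern of Myl7, with a single high library (limma adjusted p = 0.711). Kcnj5, a potassium channel subunit, had 0.04, 0.10 and 0.62 FPKM in Fbn1C1041G/+ libraries, against 0.02, 0.05 and 0.03 FPKM in WT libraries; it was chosen after its values were seen. Bmp10, a growth factor of the right atrium in the adult, was listed at 0 in all 6 libraries. Gja5 and Dkk3, which vessels also express, had log2 differences of -0.17 and 0.20. Of 5 further ventricular genes 3 were tested and 1 was called higher, against 0.744% of all genes tested. It was Fhl2, a LIM-domain protein, at 22.6, 18.3 and 26.5 FPKM in Fbn1C1041G/+ against 12.1, 12.2 and 11.5 FPKM in WT libraries (limma adjusted p = 0.0276). The call of Fhl2 was lost with the replicate block and without any 1 library other than Fbn1C1041G/+ replicate 2, 6 of 15 alternatives in all with adjusted p up to 0.109, and its highest library was Fbn1C1041G/+ replicate 3, unlike Myl2. Irx4, a transcription factor of the ventricles, was 0.09, 0.03 and 0 FPKM in Fbn1C1041G/+ libraries and listed at 0 in all WT libraries.

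Sarcolipin acts on the calcium pump together with phospholamban, Pln, which ventricle and smooth muscle also make. Pln rose evenly, to 20.6, 14.7 and 17.7 FPKM in Fbn1C1041G/+ libraries, against 5.20, 4.61 and 5.40 FPKM in WT libraries (limma adjusted p = 0.00241). The ratio of Sln to Pln in FPKM was 0.0932, 0.109 and 3.31 in Fbn1C1041G/+ libraries, against 0.0904, 0.249 and 0.128 in WT libraries. In Fbn1C1041G/+ replicate 3 sarcolipin was therefore the more abundant of these 2 regulators, as in no other library. Atp2a2, the pump of heart and smooth muscle, was 86.4, 146 and 189 FPKM in Fbn1C1041G/+ libraries, against 113, 106 and 107 FPKM in WT libraries, and was not called. Atp2a1, the pump of fast skeletal muscle, was 5.75, 8.10 and 0.33 FPKM in Fbn1C1041G/+ libraries, against 0.14, 0.10 and 0.25 FPKM in WT libraries, high in Fbn1C1041G/+ replicates 1 and 2 like the fast muscle markers. Of the 4 pump and regulator genes tested, Pln was called higher, against 0.744% of all genes tested, and 3 were not called. Their median was 0.95 against -0.004 for all genes tested, with Atp2a2 at 0.29 and Atp2a3 at 0.22. Without Fbn1C1041G/+ replicate 3, the mutant library in which it was near the WT level, Atp2a1 was called as well (limma adjusted p = 0.0068, log2 difference 2.75 against 1.90 with all libraries).

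The genes that process and sense natriuretic peptides did not follow Nppa. None of 8 tested was called with limma or had an unadjusted p under 0.05, and their median was 0.12, against -0.004 for all genes tested. Nppc, the listed gene too low for the test, had 0.17, 0 and 0.06 FPKM in Fbn1C1041G/+ libraries, against 0.77, 1.20 and 0.89 FPKM in WT libraries. It was called lower when no filter was used and is named after its values were seen. Npr1, the receptor of atrial and brain natriuretic peptide, had 90.1, 98.7 and 86.0 FPKM in Fbn1C1041G/+ libraries, against 82.4, 98.5 and 73.7 FPKM in WT libraries. Corin, the protease that cleaves the Nppa precursor in heart muscle, had 1.19, 1.58 and 2.07 FPKM in Fbn1C1041G/+ libraries, against 0.61, 1.81 and 0.41 FPKM in WT libraries, with overlapping groups.

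The myosins of the arterial wall stayed far more abundant than the heart isoforms. Myh11, the smooth muscle heavy chain, had 594, 947 and 856 FPKM in Fbn1C1041G/+ libraries, against 757, 600 and 803 FPKM in WT libraries. Myh6, Myh7 and Myh7b together came to 3.85%, 1.45% and 4.78% of the Myh11 level in Fbn1C1041G/+ libraries, against 0.0939%, 0.158% and 0.0610% in WT libraries. None of 9 smooth and non-muscle myosin genes was called with limma, 1 had an unadjusted p under 0.05 (Myh14, log2 difference -0.73), and their median was 0.17, against -0.004 for all genes tested. Myh14 was called lower with sample weights and without WT replicate 3 (limma adjusted p = 0.0184 and 0.0407), and Myh9 higher with sample weights (limma adjusted p = 0.0369).

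Further markers of cells near the heart did not give a single order. Mesothelial markers, 6 in number, summed to 8.56, 25.8 and 19.1 FPKM in Fbn1C1041G/+ libraries, against 2.10, 8.54 and 3.88 FPKM in WT libraries. Upk3b, one of them, was highest in Fbn1C1041G/+ replicate 3, at 6.91 FPKM, and Upk1b in replicate 2, at 7.46 FPKM. None of the 4 tested was called with limma, while 2 had an unadjusted p under 0.05. The median of these 4 was 1.31, against -0.004 for all genes tested. Mutant values lay wholly above WT values for 2 of the 4, Upk3b and Upk1b, against 6.85% of all genes tested. Upk3b was called higher with sample weights (limma adjusted p = 0.0218) and Krt19 with the replicate block (limma adjusted p = 0.0184). Of 6 markers of the sinus node and venous pole, 4 were tested and 2 fell, Isl1 and Shox2 (limma adjusted p = 0.00219 and 0.00524), where 4.85% of all genes were called lower. Both are also neuronal transcription factors, with Isl1 at 3.30, 4.28 and 2.52 FPKM in Fbn1C1041G/+ libraries, against 15.9, 15.3 and 16.6 FPKM in WT libraries. Tbx3 was called lower as well with sample weights, with the replicate block and without Fbn1C1041G/+ replicate 2 (limma adjusted p = 0.0392, 0.0406 and 0.0498). The 6 summed to 15.8, 20.9 and 16.1 FPKM in Fbn1C1041G/+ libraries, against 45.4, 43.9 and 37.6 FPKM in WT libraries. The median log2 difference of the 4 tested was -1.46, against -0.004 for all genes tested. Hcn4, a pacemaker channel, was at most 0.50 FPKM in any library. The part of these cells in the levels of the atrial and ventricular genes was not tested.

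Genes with the most similar pattern were sought among 12859 others, by the root mean square difference of centred log2(FPKM + 1) over the 6 libraries. Nearest to the mean atrial profile was Hamp, the iron hormone hepcidin, at a distance of 0.49, followed by the scavenger receptor gene Marco at 0.54, Mybphl at 0.58, the mucin-like gene Glycam1 at 0.60, the microRNA gene Mir6922 at 0.73 and the plasma cell gene Mzb1 at 0.75. The median distance of all genes compared was 1.74, and the 4 atrial members themselves lay 0.23 to 0.45 from their own mean. Hamp had 1.21, 0.06 and 18.5 FPKM in Fbn1C1041G/+ libraries, against 0.15 to 0.18 FPKM in WT libraries. Marco had 0.81, 0.58 and 20.2 FPKM in Fbn1C1041G/+ libraries, against 0.82, 0.03 and 0.25 FPKM in WT libraries. Only Mybphl of these 6 is a muscle gene.

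Nearest to the mean of Myl2 and Myl3 was the acute-phase gene Saa3 at 0.87, followed by the skeletal muscle genes Acta1 at 1.01, Tnnt3 at 1.02, Tnnc2 at 1.15, Atp2a1 at 1.16 and Tnni2 at 1.17, against a median of 2.29 for all genes compared. Saa3 had 13.2, 21.8 and 2.07 FPKM in Fbn1C1041G/+ libraries, against 0.50, 0.12 and 0.14 FPKM in WT libraries. Myl2 and Myl3 each lay 0.43 from their own mean. All 6 nearest genes had their highest values in Fbn1C1041G/+ replicates 1 and 2.

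**Figure D5:**
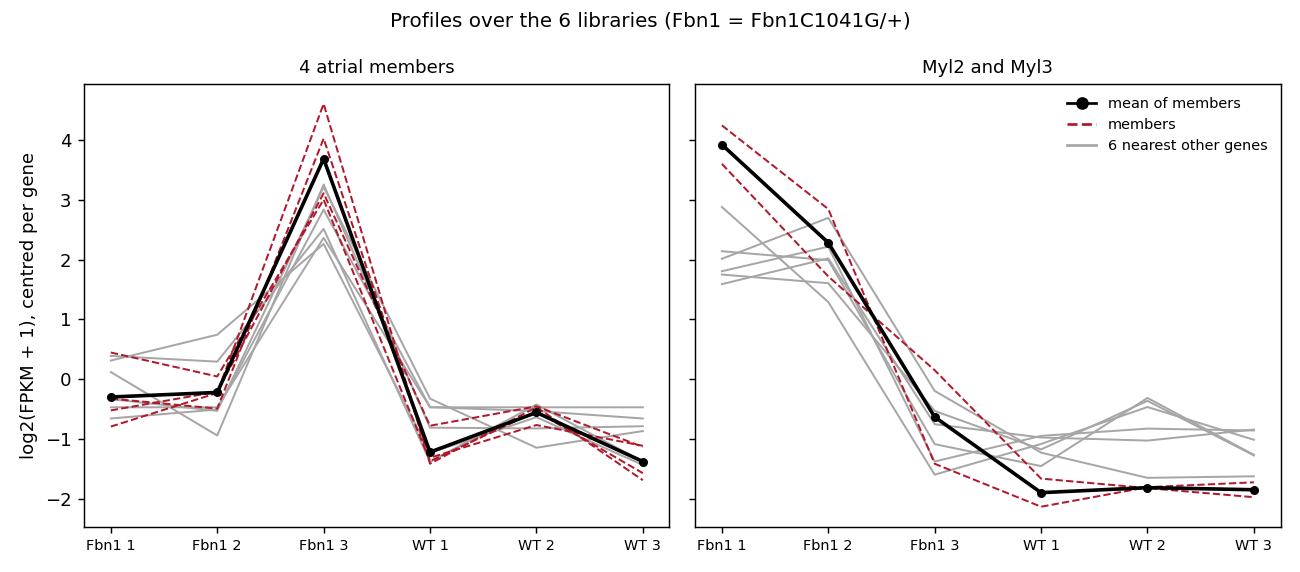
The vertical axis gives log2(FPKM + 1) centred on each gene's mean; the horizontal axis gives the 6 libraries, and lines only join the values of 1 gene. The 4 atrial members and their 6 nearest genes peak in Fbn1C1041G/+ replicate 3 (Hamp at 18.5 FPKM), and Myl2, Myl3 and their 6 nearest genes are high in replicates 1 and 2.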

How the data were processed

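The authors deposited 1 table of FPKM per gene and sample, rounded to 2 decimals, per the file headers. Build mm9 is named in the submitters' processing notes; no source used here names the aligner or quantifier. Columns were mapped to samples by name, and 0 were left unmapped. Of 21117 genes, 21059 matched a symbol by NCBI gene number in a RefSeq table of GRCm38.p6. Depth was estimated from genes with 1 transcript, whose low values fall on steps; 75.1% to 79.3% of these lay within 0.2 of a whole fragment, where an arbitrary step would give 40%. Intervals were not computed, since no counts were used.

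Tests used log2(FPKM + 1), which understates the change of low genes. The 13438 genes whose mean reached 1 FPKM were tested with limma 3.58.1 in R 4.3.3 (eBayes with trend, 2-sided, Benjamini-Hochberg over all genes tested, threshold 0.05), after a run on simulated data. Differences are Fbn1C1041G/+ minus WT. Whether samples are separate animals is not labelled, so the p-values rest on sample-to-sample spread, which may be technical. An exact permutation test of 3 against 3 cannot go below p = 0.1. Members and gene lists were chosen with earlier results of these data known. Besides the members, the genes named are Fbn1, the first of each list and its 3 genes with the smallest p (8 for heart muscle), and the 6 genes nearest in pattern to each of the 2 member profiles, clone symbols left out; exceptions are marked. Of 7 pump and regulator genes listed, 2 had no matching symbol. Alternatives were pseudocounts of 0.1 and 0.01, no filter, a filter at 5 FPKM, median-ratio scaling, quantile normalization, no trend, a replicate block, sample weights, a threshold of 0.1 and each library left out. Figures were drawn with matplotlib 3.10.9.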

Additional observations from a re-analysis of the deposited data

How the results depend on the processing

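The count of genes called higher, 100 over all genes tested, was 33 with a filter at a mean of 5 FPKM, 285 with sample weights, 184 at a threshold of 0.1 and 36 to 193 when single libraries were left out. The lowest and highest of these came without WT replicate 1 and without Fbn1C1041G/+ replicate 2, and it was 45, 47 and 38 without Fbn1C1041G/+ replicate 1, Fbn1C1041G/+ replicate 3 and WT replicate 2. The count called lower, 652, was 349 with that filter, 1011 with sample weights and 372 to 733 when single libraries were left out, with 372, 398 and 402 without WT replicate 1, WT replicate 2 and Fbn1C1041G/+ replicate 3. With the replicate number as a block the counts were 112 higher and 586 lower. Deviations of same-numbered samples correlated across genes at 0.255, -0.024 and 0.097, not all above 0.1, so the numbers were not taken to pair the samples. The heart muscle list had between 7 and 12 higher calls under all alternatives (10 with the main settings, 10 with the block), not always of the same genes. The mean log2 difference of the atrial genes ranged from 0.79 without Fbn1C1041G/+ replicate 3 to 2.78 without Fbn1C1041G/+ replicate 1, and that of Myl2 and Myl3 from 2.68 without Fbn1C1041G/+ replicate 1 to 5.90 with a pseudocount of 0.01. The sign of the atrial minus ventricular difference in each library was the same with either pseudocount, median-ratio scaling and quantile normalization; leaving out a library cannot change a value within another. Changes of sign were sought only for the members, Fbn1 and the tested genes named as first of a list or for smallest p. Of those not called, 6 had a log2 difference that changed sign. Leaving out single libraries gave -0.36 (without WT replicate 3) to 0.497 for Irx3, -0.16 (without WT replicate 3) to 0.902 for Furin, -0.003 (without Fbn1C1041G/+ replicate 2) to 0.333 for Myh11, -0.548 to 0.001 (without WT replicate 1) for Myl6b, -1.169 to 0.31 (without WT replicate 3) for Ucp1 and -0.457 to 0.076 (without WT replicate 3) for Cidea. Ucp1 was also above 0 without Fbn1C1041G/+ replicate 3, at 0.20, and with sample weights Irx3 was at -0.24 and Furin at -0.058. The cause was not tested. FPKM rounded to 2 decimals limits Myh7b, Irx4 and the WT values of Myh7 and Nppb, which are close to the smallest step of the table.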
